A study of Mus musculus with 74 samples.

Results

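Zfp810 and Zfp882 are mouse Krüppel-associated box zinc finger proteins (KRAB-ZFPs), and the genomic binding of each was mapped by 1 ChIP-seq library in F9 EC cells, a mouse embryonal carcinoma line. The deposited peak table holds 53255 peaks, and the rows named Zfp810 or Zfp882 were taken, which gave 343 peaks, 243 for Zfp810 and 100 for Zfp882. The series has 74 samples, with 1 sample for each KRAB-ZFP. The comparison set was the 20385 peaks of the other 16 KRAB-ZFPs that were expressed in F9 EC cells and immunoprecipitated through the same tag.

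Each protein was overexpressed in F9 EC cells with 3 copies of the FLAG epitope at its N-terminus, and chromatin was fixed in 1% formaldehyde and precipitated with the FLAG antibody F1804. Per the methods of the study, the Zfp810 open reading frame was carried by a lentiviral vector and the Zfp882 open reading frame by a Sleeping Beauty transposon, neither was codon-optimised, and puromycin-resistant cells were used as a pool. The cells therefore kept their endogenous KRAB-ZFPs and carried the tagged protein on top of them. The control libraries for both ChIPs were the input chromatin of F9 cells and a FLAG control ChIP. Each ChIP is 1 library here, so the values carry no replicate error. An exact two-sided permutation test of 1 library against 17 cannot give a p below 0.111, and no test was run. Shares are given with 95% Wilson intervals, which cover counting error only.

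KRAB-ZFPs bind DNA through arrays of C2H2 zinc fingers, and they repress nearby chromatin through KAP1 (TRIM28), a cofactor that docks on the KRAB domain and leads to histone H3K9 trimethylation (H3K9me3). Their best-known targets in early embryonic and embryonal carcinoma cells are transposable elements, which are kept silent in this way. Zfp810 lies in a KRAB-ZFP gene cluster on chromosome 9 together with Zfp599 and Zfp872, and Zfp882 in a cluster on chromosome 8 together with Zfp617, Zfp709 and Zfp961.

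Both proteins were assayed by the study on a synthetic target site named after Lx8, a rodent LINE-1 subfamily. These oligos show the sequence that most of 35 related Zfp882 peaks, and most of 30 related peaks in the library labelled Zfp810, had in common. They were designed with the peaks in view, and the oligo was found with no mismatch in 1 peak of each ChIP, so the matches describe where these letters lie and are not independent evidence of binding. The oligos were 45 and 48 bases long and are written 5′ to 3′:
Zfp810 oligo: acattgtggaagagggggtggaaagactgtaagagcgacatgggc
Zfp882 oligo: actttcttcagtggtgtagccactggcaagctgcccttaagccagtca

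Matching sites from the mm9 genome (NCBIM37) are shown in the direction of the oligo, without gaps, with capitals at the letters identical to it. For the library labelled Zfp810, the site with no mismatch, 2 near matches and 3 sites under strong peaks were selected as examples:
Intron of 4930447C04Rik, chr12:74021351-74021395, minus strand: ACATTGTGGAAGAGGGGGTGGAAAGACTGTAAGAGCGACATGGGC
Intergenic, chr6:148926472-148926516, minus strand: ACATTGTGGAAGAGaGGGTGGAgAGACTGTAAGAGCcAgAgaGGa
Intergenic, chr17:65560917-65560961, plus strand: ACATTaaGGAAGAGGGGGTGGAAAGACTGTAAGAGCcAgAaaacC
Intergenic, nearest start Kcnk5, chr14:20956375-20956419, plus strand: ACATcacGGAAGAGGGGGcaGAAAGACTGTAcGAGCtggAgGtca
Intron of Tesk2, chr4:116453437-116453481, minus strand: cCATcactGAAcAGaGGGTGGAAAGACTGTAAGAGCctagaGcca
Intron of Tsix, chrX:100648828-100648872, minus strand: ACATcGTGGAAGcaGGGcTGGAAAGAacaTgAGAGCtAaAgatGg

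These 6 sites held 45, 38, 37, 32, 30 and 31 letters of the 45, and their peaks were enriched 60.31-, 30.05-, 22.61-, 138.2-, 65.91- and 50.38-fold. For Zfp882, examples of near matches and of sites under strong peaks are shown, not every such site:
Intron of Gm10069, chr6:128413714-128413761, minus strand: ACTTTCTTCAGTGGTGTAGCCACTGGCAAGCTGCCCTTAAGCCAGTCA
Intergenic, upstream of SNORA17, chr2:65255964-65256011, plus strand: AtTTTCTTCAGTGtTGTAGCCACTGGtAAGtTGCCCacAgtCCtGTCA
Intron of Rab1, chr11:20108351-20108398, plus strand: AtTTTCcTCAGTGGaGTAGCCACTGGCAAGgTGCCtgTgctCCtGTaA
Intron of Txndc12, chr4:108516306-108516353, plus strand: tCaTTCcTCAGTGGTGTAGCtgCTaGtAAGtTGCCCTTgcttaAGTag
Intergenic, nearest start U6, chr5:126645924-126645971, minus strand: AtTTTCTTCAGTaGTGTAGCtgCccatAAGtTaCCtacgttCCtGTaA

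These 5 sites held 48, 39, 37, 33 and 30 letters of the 48, under peaks of 62.09-, 50.76-, 39.42-, 57.89- and 48.3-fold enrichment. In the sites of both proteins the capitals were denser toward the 5′ end of the oligo than at its 3′ end.

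The library labelled Zfp810 also held peaks over tandem arrays of the 8-base unit CTCTGCCT, or AGGCAGAG on the opposite strand, and 3 of them are shown because this was the largest group of windows in that library. The central 120 bases of each window are printed on the plus strand of mm9, with exact units in capitals:
Intron of Sgsm3, chr15:80814385-80814504, plus strand: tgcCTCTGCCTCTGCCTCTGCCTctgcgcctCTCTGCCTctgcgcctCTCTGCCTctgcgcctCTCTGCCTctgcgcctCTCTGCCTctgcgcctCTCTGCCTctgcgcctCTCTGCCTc
Upstream of D230017M19Rik, chr1:72280860-72280979, plus strand: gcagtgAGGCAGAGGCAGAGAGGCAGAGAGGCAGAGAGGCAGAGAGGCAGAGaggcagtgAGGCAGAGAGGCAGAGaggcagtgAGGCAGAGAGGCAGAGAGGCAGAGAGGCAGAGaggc
Intergenic, nearest start Slc16a1, chr3:104426450-104426569, plus strand: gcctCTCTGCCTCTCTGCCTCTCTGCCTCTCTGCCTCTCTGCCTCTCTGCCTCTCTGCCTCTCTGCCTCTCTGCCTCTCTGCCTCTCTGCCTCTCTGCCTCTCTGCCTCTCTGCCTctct

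The strongest peak of that library, and 9 of its 20 strongest, were promoter windows with neither sequence. The central 100 bases of 3 such windows are printed in the direction of transcription, with CG dinucleotides in capitals, because these windows stood out by their CG content:
Upstream of Trip12, chr1:84836023-84836122, minus strand: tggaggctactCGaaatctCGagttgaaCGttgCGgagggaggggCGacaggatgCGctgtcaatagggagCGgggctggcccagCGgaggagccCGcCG
Upstream of Lrba, chr3:86027984-86028083, plus strand: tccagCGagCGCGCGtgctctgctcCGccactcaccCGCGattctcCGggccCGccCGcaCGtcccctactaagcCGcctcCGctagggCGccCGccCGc
Upstream of Clptm1, chr7:20250437-20250536, minus strand: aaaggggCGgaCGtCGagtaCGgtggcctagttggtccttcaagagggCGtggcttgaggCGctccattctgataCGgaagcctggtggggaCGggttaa

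Before the peaks are described, the label of each library was checked against the tagged gene itself. A KRAB-ZFP open reading frame that was not codon-optimised has the same bases as the coding exons of the endogenous gene, so reads from the vector can map there. Of the 8 KRAB-ZFPs with such a construct and peaks in the table, 5 had peaks over their own coding exons (Zfp46, Zfp617, Zfp882, Zfp961 and Zkscan17), against 0 of 54 with a codon-optimised construct, and 5 were not in the annotation. Zfp882 carried 2 of these peaks in its own coding exons on chromosome 8. The wider spanned 1534 bp (chr8:74437372-74438905) with 467 tags and 59.17-fold enrichment, and 99.3% of it was coding sequence. The narrower spanned 154 bp with 27 tags, 25.16-fold enrichment and 82.5% coding sequence.

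In the library labelled Zfp810, 0 peaks lay in coding exons of Zfp810, and 2 peaks lay in coding exons of Zfp961, another KRAB-ZFP whose construct was not codon-optimised. The first spanned 1097 bp (chr8:74491793-74492889) with 291 tags and 70.36-fold enrichment, and 98.3% of it was coding. The second spanned 192 bp with 26 tags and 47.74-fold enrichment, and 66.1% of it was coding. The library labelled Zfp961 had peaks over the same exons, with 459 tags at 84.22-fold and 37 tags at 42.76-fold. Among the KRAB-ZFPs in the annotation, no other library had a peak in the coding exons of another KRAB-ZFP of the series. The 2 loci were also the only ones shared between the library labelled Zfp810 and the 1457 peaks of Zfp961 when 200 bp windows had to overlap by 25%, and 3 loci were shared when the intervals as called were compared. The cause of these peaks was not tested, and the data are therefore called the library labelled Zfp810 below. Left out, the 2 peaks changed little: the share of peaks within 1 kb of a transcript start went from 30% to 30.3%, the share with repeated sequence from 35.0% to 35.3% and the share with the Zfp810 oligo from 11.1% to 11.2%.

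**Figure D1:**
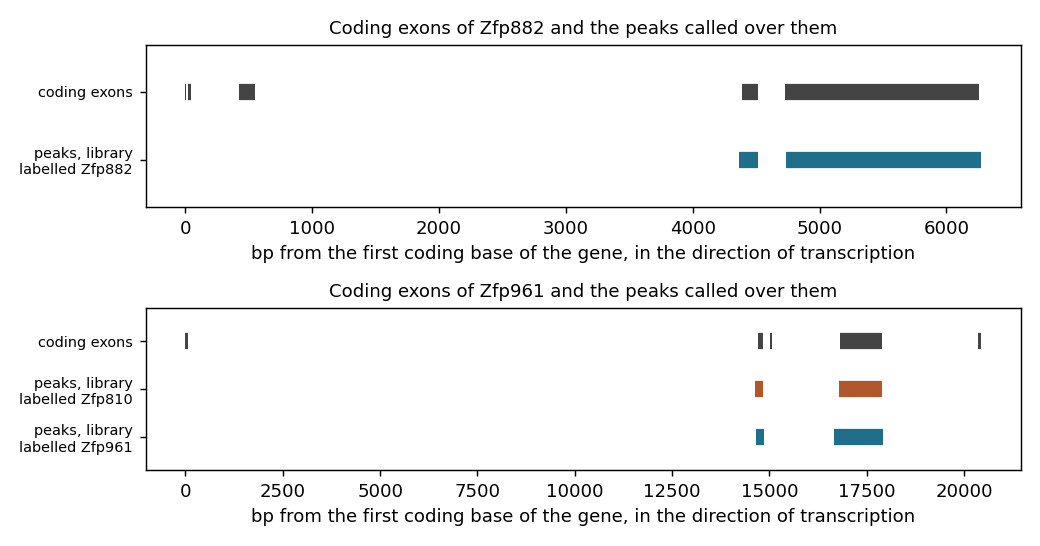
Positions of the peaks as called over the coding exons of Zfp882 and Zfp961, in bp from the first coding base of each gene (dark bars are coding exons, blue bars peaks of the library of the same name, brown bars peaks of the library labelled Zfp810). The peaks of 1534 bp and 1097 bp covered the largest coding exon of Zfp882 and of Zfp961, where the zinc finger array is encoded.

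MACS enrichment, the ratio of tags in a peak to the local background, ranged from 20.03 to 174.69 in the library labelled Zfp810, with a median of 30.15 that ranked 9 of 18 among the FLAG libraries of F9 cells. Its peaks were narrow and shallow beside those of the other libraries, with a median of 25 tags (rank 16) and a median width of 260.0 bp (rank 14). Zfp882 peaks were enriched 10.2- to 62.09-fold with a median of 19.3 (rank 15), 26.5 tags (rank 15) and a width of 221.5 bp (rank 16). The labels give an enrichment threshold of 20 for Zfp810 and of 10 for Zfp882, which sets these minima, and 43 of the 100 Zfp882 peaks exceeded 20-fold. They also give 10 for 2610305D13Rik, Gm13212, Gm13225, Gm13247 and Zfp534, with a looser p for Gm13212 and Gm13247. Ranks and pooled shares thus compare lists cut at unlike levels. Over 20-fold and at p below 1e-10, medians were 35.52 in Zfp534, 30.95 in 2610305D13Rik and 28.39 for Zfp882. Gm13225 had 25.02 and Gm13247 24.45, and Gm13212 kept no peak. The MACS false discovery rate was 0% at the median in the library labelled Zfp810 and 1.29% for Zfp882, and 98 of the 100 Zfp882 peaks stayed within 5%. The 5 widest peaks spanned 709 to 1225 bp in the library labelled Zfp810 and 483 to 1534 bp for Zfp882. The 5 peaks of lowest enrichment were all at 20.03-fold in the first library and between 10.2- and 11.04-fold in the second. The files hold no total read count of a library, so the depth behind these peaks is unknown.

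The windows of 200 bp around the summits were placed in classes, in order, by the 8-base array, by at least 6 copies of the 5-base unit GGAAT, by a match of at least 60% to the oligo of the same name, and by a summit within 1 kb of an annotated transcript start. The library labelled Zfp810 held 79 array windows, 7 GGAAT windows, 27 oligo windows, 69 promoter windows and 61 others. Zfp882 held 25 oligo windows, 23 promoter windows and 52 others, with 0 windows of either array. In the library labelled Zfp810 the median enrichment was 47.74 in the GGAAT windows and 30.15, 27.64, 30.15 and 29.37 in the array, oligo, promoter and other windows. Of its 20 peaks of highest enrichment, 9 were promoter windows, 5 others, 3 oligo windows, 2 arrays and 1 a GGAAT window. Zfp882 had 13 oligo windows, 6 others and 1 promoter window among its 20 highest, with medians of 28.49 for oligo, 16.43 for promoter and 18.14 for other windows.

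**Figure D2:**
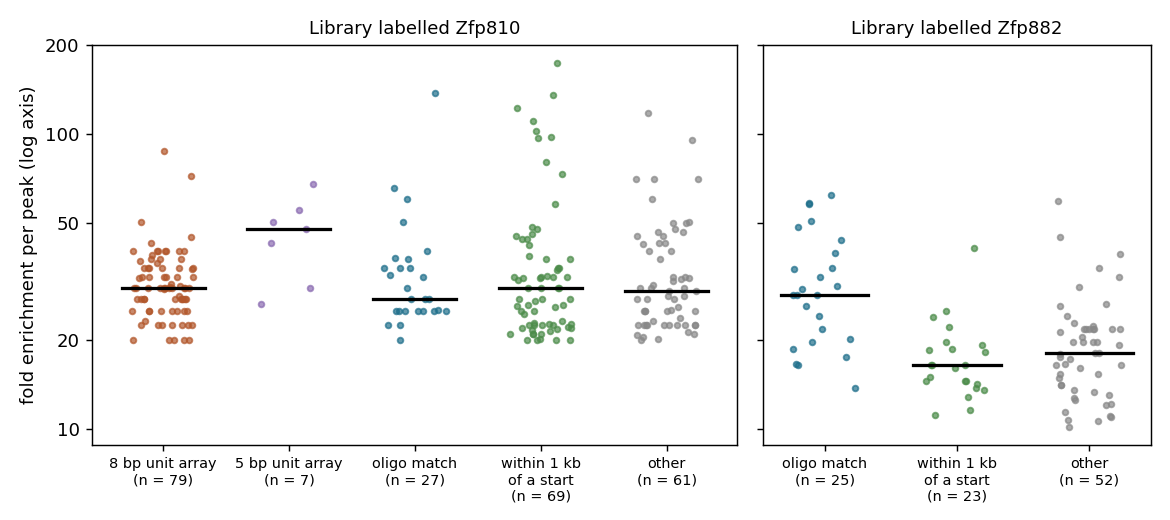
MACS fold enrichment of every peak (log axis) by the class of its 200 bp window, for the libraries labelled Zfp810 and Zfp882 (points are peaks, black lines are medians). Oligo windows reached 62.09-fold for Zfp882 and promoter windows 174.69-fold in the library labelled Zfp810.

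Of the Zfp882 peaks, 25 of 100 (25%, interval 17.5 to 34.3%) held a match of at least 60% to the Zfp882 oligo. The same search found 0 of 200 windows placed 1 kb to either side (0%, upper bound 1.88%), 0 of the 243 windows of the library labelled Zfp810, and 4 of the 20385 windows of the other FLAG libraries (0.0196%), of which Zfp961 held 2 (0.0106% without it). The 25 matching windows had 13.73- to 62.09-fold enrichment and 15 to 147 tags. The centre of the match lay a median of 12 bp from the summit, and in 21 of 25 windows within 25 bp of it. All 25 lay outside promoters, with 16 intergenic and 9 intronic. Intronic sites were in Gm10069, Txndc12 (a thioredoxin-like protein of the endoplasmic reticulum), Rab1 (a GTPase of vesicle transport), Uhrf1bp1l, Msra (a methionine sulfoxide reductase), Plcg2 (a phospholipase C), Bcl2l14, Grb10 and Fhod3.

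The library labelled Zfp810 held the Zfp810 oligo in 27 of 243 windows (11.1%, interval 7.75 to 15.7%). Flanking windows held it in 0 of 486 (0%, upper bound 0.784%), Zfp882 windows in 0 of 100, and the other FLAG libraries in 28 of 20385 (0.137%), where no library exceeded 12 windows. Enrichment of the 27 ranged from 20.03- to 138.2-fold and their tags from 12 to 180. The match lay a median of 16.5 bp from the summit, within 25 bp in 20 of 27 windows. Of these windows 14 were intergenic and 12 intronic, in Tesk2 (a protein kinase), Mtss1 (an actin-binding protein), Sox6 (a transcription factor of the SOX family), Smyd4, Ccbl1, Cgnl1, Vta1, Zfp146 and Tsix (the antisense transcript of Xist), among others. The oligos of the 2 proteins, both named for the same LINE-1 subfamily, matched no window of each other's ChIP at this identity. With shares of 0.137% and 0.0196% in the other FLAG libraries, 0 of 100 and 0 of 243 windows are near background and say nothing of the pair.

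Sequence was conserved unevenly along the sites. In the 26 windows of the library labelled Zfp810 whose site was not the oligo itself, positions 9 to 32, counted from the 5′ end of the oligo, were identical in 86.9% of letters against 58.8% in the remaining positions. In the 24 such Zfp882 windows, positions 3 to 26 were identical in 89.9% against 50.7%. These 24-base stretches were picked as the most identical run, so the contrast describes the sites and is not a test. High identity was not confined to them. Positions 1 to 4 of the Zfp810 oligo were identical in 92.3 to 100% of these sites. Positions 28 to 30 and 32 to 34 of the Zfp882 oligo were identical in 91.7 to 100%. The lowest identity, 0%, was at positions 37, 39 and 41 of the first oligo and at position 31 of the second. A match of 60% was common in the genome. The Zfp810 oligo had 33827 such sites in mm9, of which 27 (0.0798%) lay within 100 bp of a summit of the library of that name, and the Zfp882 oligo had 5570, of which 29 (0.521%) did.

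The share of sites with a peak rose with identity. For the Zfp810 oligo it was 0.00376% at 60 to 65% identity, 0.0821% at 65 to 70%, 0.541% at 70 to 75%, 1.90% at 75 to 80% and 5.80% (4 of 69) above 80%. The Zfp882 oligo gave 0.0944%, 1.01%, 1.52%, 6.52% and 25% (2 of 8) in the same bins. Sites in every bin thus mostly had no peak, and the counts in the top bins were small. The top bin of each oligo includes its 1 site with no mismatch. That site had a peak and is not independent of the oligo, so it raises the top share by design.

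**Figure D3:**
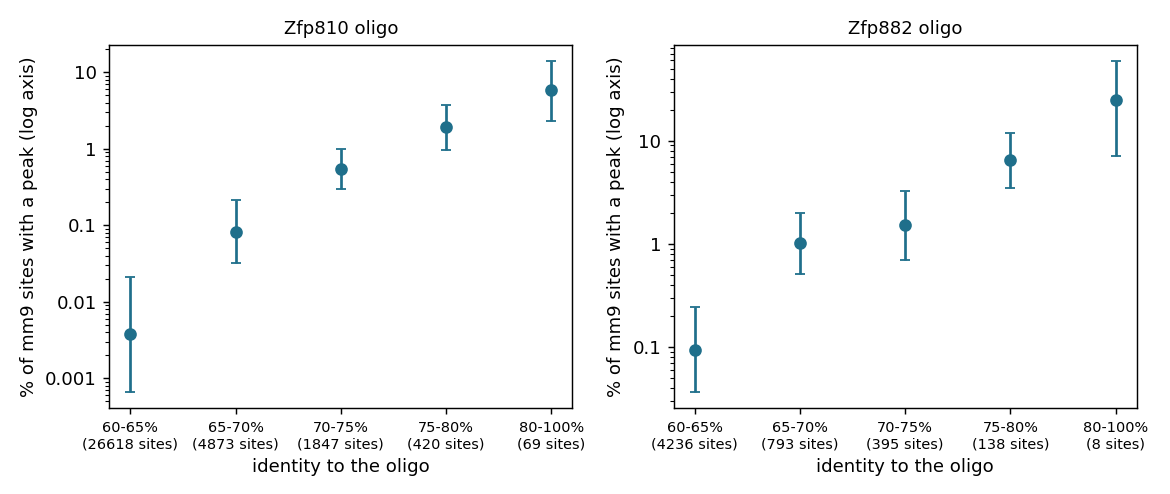
Share of all mm9 sites of each oligo that lay within 100 bp of a summit of the library of that name (log axis), by identity to the oligo (bars are 95% Wilson intervals, the number of sites is given under each bin). The share climbed from 0.00376% to 5.80% for the Zfp810 oligo and from 0.0944% to 25% for the Zfp882 oligo. The top bins include the site with no mismatch, which had a peak.

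Particular positions separated sites with a peak from those without. At position 4 of the Zfp810 oligo, 100% of the sites with a peak had the letter of the oligo against 45.9% of sites without one, and positions 16, 3 and 2 followed with 96.2% against 47.8%, 96.2% against 49.5% and 100% against 59.1%. Positions 5 to 7 went the other way, as did several toward the 3′ end, most at position 44 (11.5% against 52.9%) and position 43 (23.1% against 54.1%). Sites of the Zfp882 oligo differed most at position 12 (100% against 62.9%), position 11 (100% against 67.2%) and position 16 (96.4% against 63.8%). The largest opposite differences were at position 31 (3.57% against 30.8%) and position 44 (39.3% against 65.5%). Sites with a peak had a higher identity in all, with medians of 73.3% against 62.2% and of 70.8% against 62.5%, which raises most positions together.

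**Figure D4:**
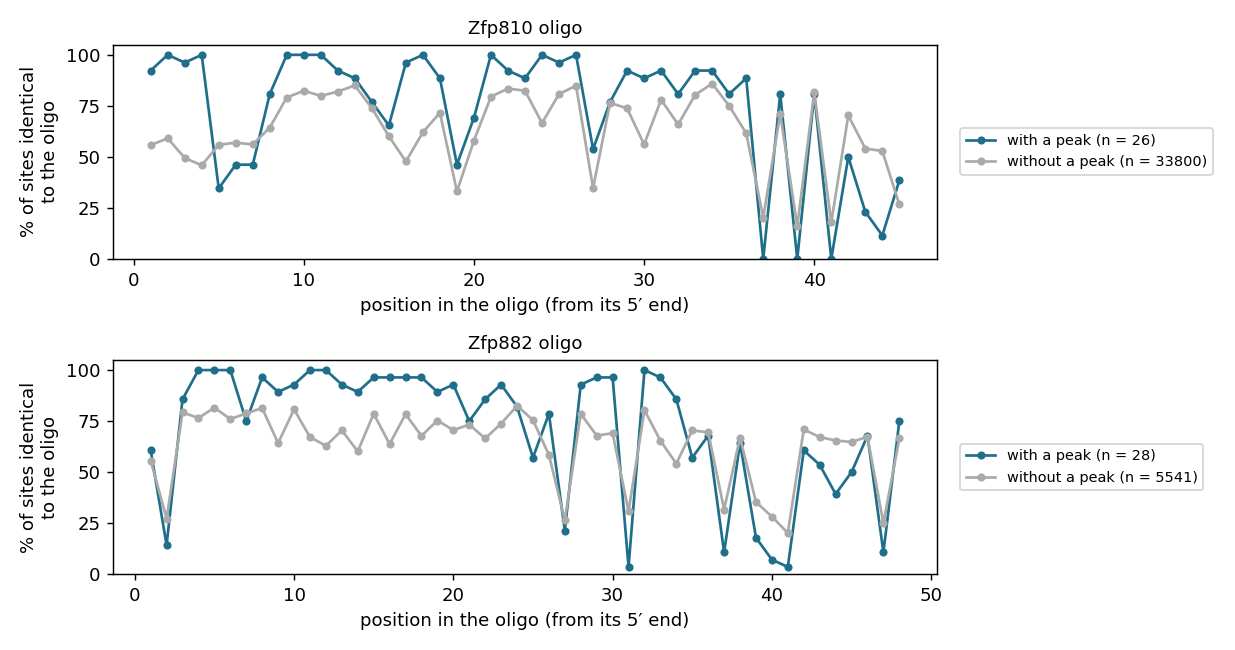
Percentage of mm9 sites with the letter of the oligo at each position, counted from the 5′ end, for sites with a peak (blue) and without (grey), leaving out the site with no mismatch. The 26 Zfp810 sites with a peak reached 100% at positions 2 and 4, and the 28 Zfp882 sites at positions 11 and 12.

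Related sequence was also sought without the oligos. When the windows of a ChIP were aligned to each other with blastn, 42 of 100 Zfp882 windows (42.0%, interval 32.8 to 51.8%) aligned to another at an e-value of 1e-05, against 10.5% of flanking windows. The largest connected group held 35 windows, of which 24 carried the oligo, and the others fell below 60% identity. In the library labelled Zfp810, 48 of 243 windows (19.8%, interval 15.2 to 25.2%) aligned to another, against 11.5% of flanking windows. At an e-value of 0.01 this contrast was nearly gone, with 23.9% of windows against 20.6% and 19.8% of those on either side. The largest group at 1e-05, of 30 windows, held 26 of the 27 oligo windows, and the next, of 14, held 13 array windows. The blastn filter on low-complexity sequence removes most of the arrays, and the share was 53.5% without it.

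A motif model of 20 bases fitted to the Zfp882 windows of odd-numbered chromosomes recovered the core of the oligo, a stretch around TTCAGTGGTG. On the held-out chromosomes it found a site in 19 of 48 windows (39.6%, interval 27.0 to 53.7%), against 3.12% of the flanking windows and 3.55% of the windows of the other FLAG libraries. Of these 19 sites, 16 lay within 25 bp of the summit and 16 in windows with the oligo. Trained on the even-numbered chromosomes and X, the model found 26.9% of the remaining windows (interval 16.8 to 40.3%). Its background was higher, at 7.69% of flanking windows (interval 3.95 to 14.4%) and 7.06% of the other FLAG libraries. The same fit to the library labelled Zfp810 returned the repeated AGAGGCAG of the array instead. It found a site in 48 of 114 held-out windows (42.1%, interval 33.4 to 51.3%), against 7.46% of flanking windows and 8.07% of the other FLAG libraries, of which Gm13051 reached 34.2%. Of these 48 sites, 11 lay within 25 bp of the summit and 37 in array windows.

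With the array windows left out, a second model of that library, which was added after the first was seen, returned the Zfp810 oligo. Fitted on odd-numbered chromosomes, it found 25 of 77 held-out windows (32.5%), against 9.09% of flanking windows and 6.38% of the other FLAG libraries. Among the latter, Gm13157 held a site in 155 of 443 windows (35.0%), a share as high as in the held-out windows, and Zfp534 in 9 of 52 (17.3%). Fitted on the even-numbered chromosomes and X, it found 21 of 87 (24.1%), against 3.45% and 3.61%, with 0.451% in Gm13157 and 13.7% in Zfp46. Together the fits called 24 of the 27 oligo windows, but only 12 of the 69 promoter windows (17.4%) and 8 of the 61 others (13.1%).

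The 8-base arrays were the largest class of the library labelled Zfp810. At least 2 exact units were present in 79 of 243 windows (32.5%, interval 26.9 to 38.6%), against 0.617% of flanking windows, 0 of 100 Zfp882 windows and 1.13% of the windows of the other FLAG libraries (0.226% without Gm21082). Each of the 79 held at least 9 units, with a median of 18 and a maximum of 24. Their enrichment ranged from 20.03- to 87.95-fold and their tags from 12 to 186, with a median of 21.0. Intergenic windows numbered 45 and intronic windows 33, among them introns of Sgsm3 (87.95-fold), Numa1 (37.69-fold, encoding a spindle-pole protein), Lrrc23 (37.09-fold) and Slit3 (35.18-fold, encoding an axon guidance ligand).

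Among the other 16 FLAG libraries the arrays were frequent only in Gm21082, with 190 of 2211 windows (8.59%, interval 7.5 to 9.83%), followed by Zfp46 with 3 of 300 (1.00%). The loci coincided: 47 of the 79 array windows of the library labelled Zfp810 (59.5%) and 47 of the 190 of Gm21082 (24.7%) were shared. Gm14412 shared 10 of the 79. Peaks of both libraries were called over the same controls. In mm9, 1602 arrays of at least 9 units were found, of which 75 (4.68%) held a peak of the library labelled Zfp810, 178 (11.1%) a peak of Gm21082 and 56 both. Arrays of at least 30 units held a peak of the library labelled Zfp810 in 7.86% of cases, against 3.23% at 9 to 19 units and 2.71% at 20 to 29. The corresponding shares for Gm21082 were 23.2%, 4.94% and 4.26%. The median lengths of these arrays were 308, 108 and 158 bp. A longer array offers more bases for a window to overlap, so number of units and length cannot be told apart here.

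Exact repetition of these windows bears on how reads were placed. In 77 of the 79 array windows, the median exact 24-base word occurred at least 10 times in mm9, with a median of 4433.0 copies over the class. A read that fits many positions equally well was placed at 1 of them by the aligner, so the position of these peaks is less certain than that of the others, and the part this plays in the sharing was not tested. Over all classes, 85 of 243 windows of that library (35.0%, interval 29.3 to 41.2%) had such a copy number, which ranked 4 of 18, against 20.3% of the windows of the other FLAG libraries. Gm21082 supplied 2031 of those 4147 windows, and the share without it was 11.6%. Zfp882 had 1 of 100 (1.00%, interval 0.177 to 5.45%), the lowest of the 18 libraries. All 27 oligo windows of the first library had a median copy number of at most 2, and all 25 of Zfp882 of at most 8.

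Arrays of GGAAT were a minor class of the library labelled Zfp810, with 7 windows (2.88%, interval 1.4 to 5.83%) at 26.64- to 67.84-fold enrichment. No flanking window of 486 and no Zfp882 window held them, and 33 of the 20385 windows of the other FLAG libraries did (0.162%, or 0.0885% without Zfp534 and 0.0917% without Zfp617). Of those 33, Zfp534 held 15 among its 52 windows (28.8%) and Zfp617 15 among its 764 (1.96%). All 7 loci were shared with Zfp534 and 6 of them with Zfp617. Introns of Myo7a (an unconventional myosin, 50.25-fold) and Ano2 (a calcium-activated chloride channel, 47.74-fold) held 2 of the 7.

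Transcript starts were the other frequent location. In the library labelled Zfp810, 73 of 243 summits (30%, interval 24.6 to 36.1%) lay within 1 kb of an annotated start, against 18.5% in the other FLAG libraries. This was the third highest share of the 18 after Gm13152 (50%) and Zfp46 (44.3%). Within 250 bp of a start lay 49 (20.2%). Zfp882 had 23 of 100 summits within 1 kb (23%, interval 15.8 to 32.2%, rank 6) and 14 within 250 bp. The pooled share of the other FLAG libraries rests on Gm13152, which gave 2597 of their 3781 summits near a start. Without Gm13152 it was 7.79%, below the intervals of both libraries, whereas with it the Zfp882 interval included the pooled share. Among the Zfp882 peaks over 20-fold, 4 of 43 lay within 1 kb (9.30%, interval 3.68 to 21.6%), and this interval included 7.79%. These 4 included the narrower peak over Zfp882 itself. By annotation, the summits of the library labelled Zfp810 fell in 132 intergenic, 89 intronic, 14 untranslated, 5 coding and 3 noncoding exon positions, and those of Zfp882 in 60, 33, 2, 5 and 0.

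**Figure D5:**
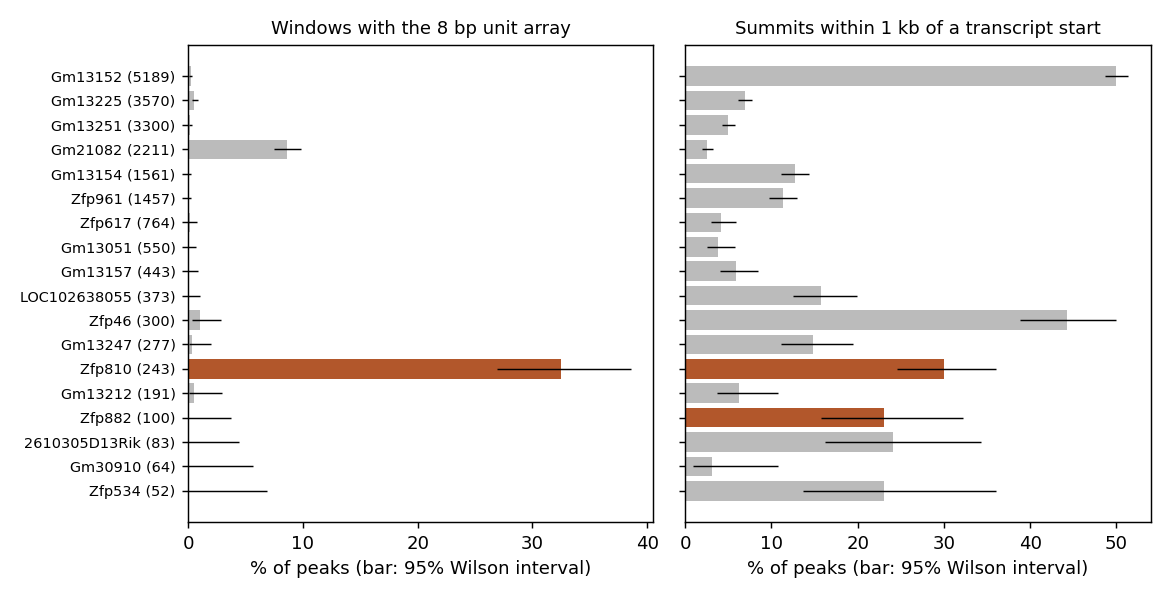
Percentage of peaks of each FLAG library in F9 cells with the 8-base array in the window (left) and with the summit within 1 kb of a transcript start (right), with 95% Wilson intervals, libraries ordered by their number of peaks (in parentheses). The library labelled Zfp810 stood at 32.5% for the array with Gm21082 next at 8.59%, and at 30% for transcript starts.

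The promoter windows of the library labelled Zfp810 had a median of 63.5% G and C and of 17 CG dinucleotides per 200 bp, against 47.5% and 1.0 in its oligo windows. The strongest peak of the library lay 194 bp upstream of Trip12, which encodes a ubiquitin ligase, with 318 tags and 174.69-fold enrichment. Next were Lrba (135.69-fold, vesicle trafficking), 2410127L17Rik (123.12-fold), Clptm1 (110.56-fold), Imp3 (102.33-fold, a component of the U3 small nucleolar ribonucleoprotein), Vamp4 (98.0-fold, a SNARE protein) and Rbm7 (97.4-fold, a subunit of a nuclear exosome adaptor). These 7 summits lay between 568 bp upstream and 60 bp downstream of the start.

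Several roles recurred among the remaining promoters. RNA processing was represented by Prpf3 (42.06-fold, a splicing factor of the U4/U6 particle), Ddx20 (27.1-fold, a helicase of the SMN complex), Ddx5 (22.1-fold, an RNA helicase) and Papd4 (32.66-fold, a cytoplasmic poly(A) polymerase). Deubiquitinases were Usp24 (26.27-fold), Usp46 (22.61-fold) and Usp1 (20.19-fold). Chromatin and transcription factors were Pbrm1 (46.05-fold, a subunit of the PBAF remodelling complex), Cbx7 (23.19-fold, a Polycomb protein), Rfx3 (22.92-fold), Med18 (21.08-fold, a Mediator subunit) and the zinc finger genes Zfp146 (40.2-fold, an oligo window 640 bp upstream) and Zfp273 (20.1-fold). Whether these roles are more frequent than in all promoters was not tested.

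Signalling genes were Fzd10 (37.69-fold, a Wnt receptor), Map3k3 (32.12-fold), Nlk (21.08-fold, a kinase of the Wnt pathway), Pde4d (21.74-fold), Mif (48.29-fold, a cytokine), Rassf8 (47.8-fold) and Plcl2 (80.41-fold). Metabolic and mitochondrial genes were P4ha1 (32.67-fold, a collagen prolyl hydroxylase), Atp5b (21.82-fold, a subunit of ATP synthase) and Tomm34 (22.61-fold, mitochondrial import). The window 912 bp upstream of Mir290, the first miRNA of a cluster abundant in embryonic stem cells, was enriched 27.64-fold with 16 tags. Other named starts were Pih1d1, Gdpd1, Klhdc10, Eef1a2, Spsb1, Cnnm4, Anxa5, Ccpg1, Rab3gap2, Gdi2, Ppp2r5c, Leprot, Rgmb, Fry, Mlxip and Kbtbd3, between 20.03- and 73.47-fold. Of the 69 promoter windows, 16 were shared with Gm13152, the library with the highest share of starts.

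Outside the promoter, array and oligo classes, the library labelled Zfp810 had its strongest windows in introns and over Zfp961. The highest were in introns of Cpt1a (117.83-fold, the carnitine palmitoyltransferase of mitochondrial fatty acid import) and Topors (95.7-fold, a ubiquitin and SUMO ligase). Introns of Slc6a13 (70.36-fold, a GABA transporter) and Capn2 (70.36-fold, a calpain protease) followed. The Cpt1a and Slc6a13 windows matched the Zfp810 oligo at 55.6%, below the limit for an oligo window. Both were called by the second model and fell in the largest related group, of 30 windows, with 26 oligo windows. The Topors, Capn2 and Zfp961 windows were in no related group and were not called by that model. The Topors summit lay 1024 bp from the nearest start, just past the 1 kb limit. Its window had 68.5% G and C and 21 CG dinucleotides, and it was shared with Gm13152. Coding exons other than those of Zfp961 held a peak in 1600002K03Rik (32.67-fold), Kctd17 (22.61-fold) and Pomc (22.61-fold, the precursor of ACTH and other peptide hormones).

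The highest promoter peak of Zfp882 lay 103 bp upstream of 2810403A07Rik, with 103 tags and 41.01-fold enrichment. The remaining promoter windows lay between 11.18- and 25.16-fold, the upper value being the narrower peak over Zfp882 itself. They included Mbtps2 (22.12-fold, the site-2 protease), Alg5 (23.91-fold, N-glycosylation), Clasp1 (19.71-fold, a microtubule-binding protein), Slc3a2 (18.72-fold, an amino acid transporter subunit), Cltc (16.52-fold, the clathrin heavy chain), Rora (16.5-fold, a nuclear receptor), Psma3 (14.19-fold, a proteasome subunit), Tram1 (13.78-fold, translocation into the endoplasmic reticulum), Magt1 (13.54-fold), Kntc1 (12.85-fold, a kinetochore protein), Hspa4 (11.57-fold, a chaperone) and Klf6 (11.18-fold, a zinc finger transcription factor). Coding exons other than those of Zfp882 held a peak in Samm50 (21.92-fold, assembly of the mitochondrial outer membrane), Rplp2-ps1 (14.54-fold) and Klf6.

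The 2 parts of the Zfp882 list on either side of 20-fold enrichment differed in their classes. Above 20-fold, 19 of 43 windows (44.2%) held the oligo and 4 (9.30%) lay at a transcript start. At or below 20-fold, the level accepted for this library but not for Zfp810, 6 of 57 (10.5%) held the oligo and 19 (33.3%) lay at a start. The strongest Zfp882 windows of neither class were the wider peak over Zfp882 itself and introns of Hps3 (44.65-fold, with 100 tags, a lysosome-related organelle gene) and Gm15286 (39.31-fold).

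Loci were counted as shared when windows of 2 libraries overlapped by at least 25% of their length. With any of the other labelled KRAB-ZFPs, 109 of 243 windows of the library labelled Zfp810 (44.9%, interval 38.7 to 51.1%) and 38 of 100 of Zfp882 (38.0%, interval 29.1 to 47.8%) were shared, the highest and the next highest of the 18 FLAG libraries. The oligo windows were mostly apart from this: 0 of 27 in the library labelled Zfp810 and 1 of 25 for Zfp882 were shared, against 109 of 216 and 37 of 75 without the oligo. The library labelled Zfp810 shared most with Gm21082 (48 loci, 19.8% of its list and 2.17% of that of Gm21082), Gm13152 (23 loci, 9.47% and 0.443%) and Gm14412 (13 loci, 5.35% and 0.466%). For Zfp882 these were Gm13251 (13 loci, 13% and 0.394%), Zfp493 (10 loci, 10.0% and 8.55%), Gm13152 and Gm13225 (9 loci each, 9% of its list).

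The neighbours in the gene clusters shared between 0 and 4 loci. With either library, most KRAB-ZFPs outside its cluster shared 0 or 1, so the 4 loci of Zfp709 were more than most. Outside the cluster, Gm13157, Zfp456 and Zfp759 also shared 4 loci with Zfp882, and Gm13251 shared 13. Whether neighbours share more or fewer loci than other KRAB-ZFPs was not tested. Zfp599 shared 1 locus with the library labelled Zfp810, 202 bp upstream of Rab3gap2 (32.92-fold), and Zfp872 shared 0. Zfp709 shared 4 loci with Zfp882, in introns of Mrps28 (19.31-fold), Slc3a2 and Arsg (15.34-fold) and in an intergenic window on chromosome 2 (13.09-fold), and Zfp617 and Zfp961 shared 0. Between the 2 libraries 7 loci were shared (2.88% of the first list and 7% of the second). The locus of most similar enrichment lay in an intron of 1700030G06Rik (32.21-fold in the library labelled Zfp810 and 32.87-fold for Zfp882). The others were lower for Zfp882, at chr2:17910829-17911028 (49.84- and 13.09-fold), chr17:90333515-90333714 (32.67- and 16.14-fold), near Cbfa2t2 (29.44- and 10.61-fold), chr8:8984426-8984625 (25.32- and 11.41-fold), near Adrb3 (20.25- and 10.2-fold) and upstream of Kcnt2 (20.03- and 16.43-fold). The locus on chromosome 2 was shared by 10 other KRAB-ZFPs, counted from either list.

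Peaks were spread over the chromosomes, with the most on chromosome 9 for the library labelled Zfp810 (25 peaks) and on chromosome 8 for Zfp882 (9 peaks, of which 2 lay over Zfp882 itself). Within 10 kb of another summit of the same ChIP lay 18 of 243 (7.41%) and 2 of 100 (2.00%). Of genes chosen for their role, none of 33 annotated pluripotency genes and none of 29 genes of primitive endoderm and the retinoic acid response held a peak of either library in the gene or within 1 kb. Among 28 genes of KAP1 silencing and heterochromatin, Zfp882 had 1 peak, in an intron of the DNA methyltransferase gene Dnmt3a (19.29-fold, 20 tags). Among 50 imprinted genes, Zfp882 had 1 peak, in an intron of Grb10, an adaptor of growth factor receptors, 5405 bp from the nearest start (35.07-fold, 45 tags), which held the Zfp882 oligo. The library labelled Zfp810 had 0 peaks in all 4 lists. Of all 33924 annotated genes, 0.436% held a peak of the library labelled Zfp810 and 0.168% a Zfp882 peak by the same rule, and counts of 0 or 1 in lists this short say nothing of a list.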

How the data were processed

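The series measured KRAB-ZFP binding by ChIP-seq. Per the labels and the study's methods, the authors mapped reads of both ChIPs to mm9 with Bowtie (first 3 bases trimmed, the best position kept, and 1 of several equally good positions taken) and called peaks per library with MACS (version 1.4.2 in the submitters' processing notes) over the F9 input and over the FLAG control, keeping peaks found with both, at p below 1e-10 and enrichment over 20 (Zfp810) or 10 (Zfp882). The deposited table gives, per peak, a tag count, a score (−10 times log10 of p), the ratio (fold enrichment) over the local background and a false discovery rate in percent, all set by the authors' peak caller. It has no header, and these meanings were read from the order of a MACS table and the values. The name Zfp92 of 244 peaks matched no label, and the label Zfp94 no peak, and neither was used.

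Windows of 200 bp around summits were compared with windows 1 kb to either side and with those of the other 16 FLAG libraries. Sequence and genes came from NCBIM37 and its GENCODE annotation, and oligo sequences from a supplementary table of the study. Oligos were matched on both strands without gaps (60% identity). Copy number was the median count of 24-base words, called at 10. Related windows were sought with blastn 2.17.0 (1e-05). The motif model, 20 bases wide, was fitted by expectation-maximisation on 100 bp around summits of odd-numbered chromosomes, with a site above percentile 95 of the flanking scores. It was tested on simulated data. Python 3.11.15, numpy 2.4.6, scipy 1.17.1 and pysam 0.24.0 were used. Repeat annotation was not used here.

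The genes named are those of the 10 peaks of highest enrichment in each ChIP, of peaks within 1 kb of a start or in a coding exon, of loci shared between the ChIPs or with cluster neighbours, and of the gene lists. Hosts of oligo, array and other windows beyond these were chosen for naming with their values known. The members and lists were chosen with earlier results of these data known. The arrays, the second model, the genome-wide sites and the coding exon check were added after seeing the data.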

Additional observations from a re-analysis of the deposited data

How the results depend on the processing

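Of 59 alternatives over 20 results for the 2 ChIPs, 46 kept their value within its interval, or within 1.5 times for a count, and 13 moved it. For the share of peaks near a transcript start, a limit of 5 kb gave 44.0% in the library labelled Zfp810 and 33% for Zfp882, and the Zfp882 peaks over 20-fold gave 9.30%. A copy number of at least 100 gave 27.6% and 0%, and the Zfp882 peaks over 20-fold 0%. Held-out motif sites of Zfp882 came to 26.9% when the model was trained on even-numbered chromosomes and X, and to 56.5% over 20-fold. Requiring 20-fold enrichment left 43 Zfp882 peaks. Related windows came to 53.5% and 52.0% without the low-complexity filter, an alternative added after seeing the data, and to 24% for Zfp882 at an e-value of 1e-10. The Zfp882 oligo at 70% identity was found in 13% of windows. The causes were not tested beyond what each setting removes by construction. No paired analysis was possible because each KRAB-ZFP had 1 sample and the result comes from no test. Leaving out each of the other 16 FLAG libraries in turn, an alternative added after seeing the data, moved their pooled share by over 1.5 times without Gm13152 for transcript starts (18.5% to 7.79%), without Gm21082 for copy number (20.3% to 11.6%) and the 8-base array (1.13% to 0.226%), without Zfp534 or Zfp617 for GGAAT (0.162% to 0.0885% and 0.0917%) and without Zfp961 for the Zfp882 oligo (0.0196% to 0.0106%).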
